A study of Mus musculus with 16 samples.

Results

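Livers of mice labelled immature were compared between LERKO animals, which carry a liver-specific knockout of oestrogen receptor alpha, and their controls, by RNA sequencing. The comparison rests on 8 of the 16 libraries of the series, 1 library per mouse: 4 labelled LERKO with Cre and 4 labelled as controls without Cre. The control mice carry the floxed gene without Cre, so the floxed allele is common to both groups. The other 8 libraries come from mice labelled mature. They enter through the count filter, the scaling, the shared estimate of the spread and the test of a difference between the stages. The sources used here do not give the promoter that drives Cre, the deleted exon, or the sex or age of the animals, nor whether immature refers to the time of the knockout or to the time of collection. Libraries are numbered 1 to 4 within each group; the numbers are names only and pair no animals.

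Oestrogen receptor alpha, the product of Esr1, is a transcription factor that binds oestradiol, attaches to DNA at oestrogen response elements or through other factors, and recruits coactivators or corepressors. In the liver it is known for its part in lipid, bile acid and lipoprotein metabolism and in the synthesis of secreted proteins such as angiotensinogen and clotting factors. Hepatocytes also make fatty acids and cholesterol under the control of the SREBP transcription factors, and burn fatty acids in mitochondria and peroxisomes.

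Esr1 was the only gene that passed an adjusted p of 0.05 in immature LERKO livers with edgeR. The 4 controls held 65.8, 84.5, 89.0 and 55.3 CPM of Esr1 (CPM being read counts scaled to the library's total and its TMM factor), and the 4 LERKO libraries held 10.7, 12.6, 15.95 and 12.7 CPM. The groups did not overlap, and the LERKO libraries stood at 14.5, 17.2, 21.7 and 17.2% of the control mean. The fitted log2 fold change was -2.50 (SE 0.19, adjusted p = 6.55e-06, edgeR quasi-likelihood test). Counts over the whole gene (ENSMUSG00000019768, mm10 chromosome 10, 4611593 to 5005614, forward strand) include any transcript parts outside the deletion. Fewer cells of a type and less RNA per cell cannot be told apart in these bulk samples.

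Of 13379 genes tested, 1 passed an adjusted p of 0.05, which is 0.00747%. The unadjusted p was below 0.05 for 2.76% of genes, of which 249 were higher in LERKO (1.86% of those tested) and 120 lower (0.897%). All 4 LERKO libraries lay above all 4 controls for 128 genes (0.957%) and below them for 90 (0.673%). Where no gene differs, a p below 0.05 is reached by a share of 0.05 on average, more than the 2.76% here. Separated groups also arise where nothing differs, so neither measure marks a gene as changed. Fold changes were positive for 53.2% of genes, and their median was 0.01. The 95% interval lay within 2-fold in either direction for 83.4% of genes. The same model held the test of whether the knockout effect differed between the immature and mature stage, and it called 0% of genes.

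**Figure D1:**
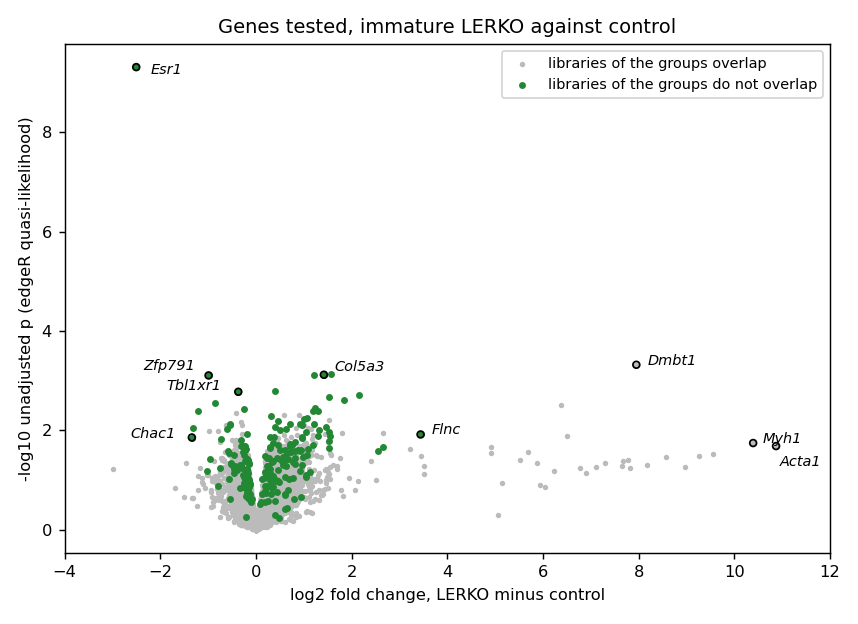
Log2 fold change (LERKO minus control, horizontal axis) against -log10 of the unadjusted p (vertical axis) for the 13379 tested genes, with genes whose 4 LERKO and 4 control libraries do not overlap in green. Esr1, at -2.50, stands alone at the top, and the points beyond 5 on the right include the muscle genes Acta1 and Myh1, found in 1 LERKO library, and Dmbt1.

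Before the other genes are described, 3 libraries need to be named, because they stood apart. LERKO library 4 held transcripts of skeletal muscle. Its summed level over the muscle marker list, of which 23 genes were tested, was 295 CPM, against 31.3 to 36.0 CPM in the other 7 libraries. Acta1, skeletal muscle actin, stood at 46.2 CPM in that library, Myh1, a fast myosin heavy chain, at 33.2 CPM, Ckm, muscle creatine kinase, at 18.5 CPM, and Tnnt3, fast troponin T, at 14.99 CPM. These 4 genes had a count of 0 in the other 7 immature libraries, and mature libraries brought them past the count filter. Atp2a1, the calcium pump of muscle, stood at 12.2 CPM there, and elsewhere only LERKO library 2 had any, at 0.0533 CPM. LERKO library 4 also held the highest levels of lipogenic genes, given below.

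LERKO library 2 differed in genes of the X chromosome. Xist, the RNA that coats the inactive X chromosome, stood at 551, 718, 665 and 517 CPM in the controls and at 481, 735 and 679 CPM in LERKO libraries 1, 3 and 4. In LERKO library 2 it stood at 0.48 CPM, from 9 reads. Kdm6a, Kdm5c, Eif2s3x and Ddx3x, X-linked genes that are known to escape X inactivation, were chosen after the Xist values were seen. Kdm6a stood at 10.9 CPM in LERKO library 2 and at 15.2 to 20.7 CPM in the other 7 libraries. Eif2s3x stood at 22.8 CPM against 31.0 to 46.3 CPM, Kdm5c at 48.3 CPM against 61.7 to 80.2 CPM, and Ddx3x at 172 CPM against 218 to 258 CPM. LERKO library 2 was the lowest of the 8 for all 5 genes. Over 381 X-linked genes the median of its centred log2 CPM was -0.02, within the range of the other libraries. All 125 Y-linked genes in the table had a count of 0 in every library of the series. Reads of Xist cannot be told apart from those of its antisense partner Tsix, since the sources used here do not give the strand setting. The cause of the difference was not tested.

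**Figure D2:**
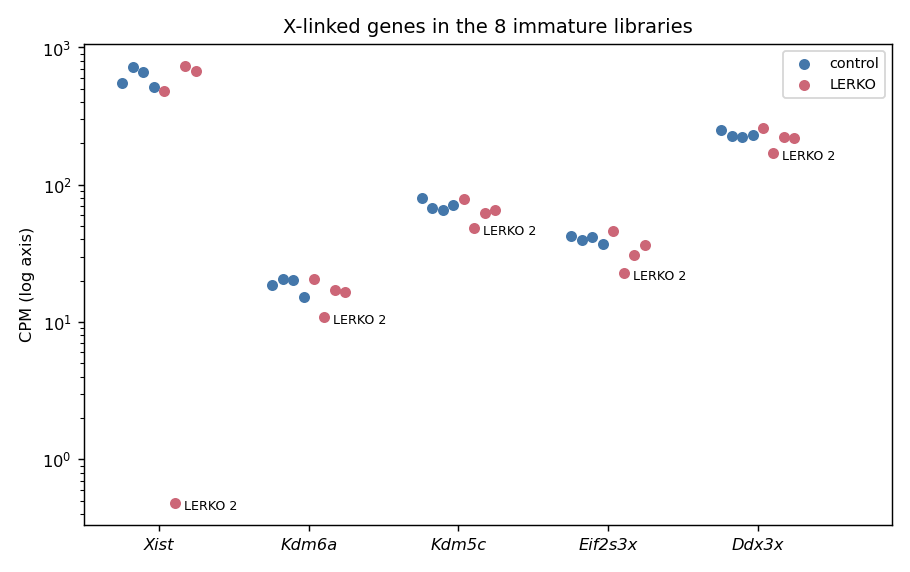
Levels (CPM, log axis) of 5 X-linked genes in the 8 immature libraries, controls in blue and LERKO in red. LERKO library 2 is the lowest for each gene, at 0.48 CPM of Xist against 481 to 735 CPM in the others.

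Among genes with at least 10 CPM in LERKO library 2, 5 were most raised there against the highest of the other 7 libraries. These were Selenbp2, Serpina1e, Onecut1, Gm20649 and Gm31583. Selenbp2, a selenium-binding protein known to be higher in male mouse livers, stood at 13.9, 43.1, 18.3 and 2.95 CPM in controls against 5.15, 181, 7.08 and 7.25 CPM in LERKO. Serpina1e, a serine protease inhibitor, stood at 113, 392, 83.4 and 30.4 CPM in controls against 12.8, 1278, 51.7 and 14.6 CPM in LERKO. For the hepatocyte transcription factor Onecut1 the controls held 27.2, 46.8, 28.2 and 24.2 CPM and the LERKO libraries 23.5, 128, 14.7 and 16.6 CPM. In these 3 genes library 2 is the highest of the LERKO group and control library 2 the highest of the controls, and the groups overlap. Gm20649, which shares its strand and position with Onecut1, follows it at 75.0 CPM in LERKO library 2, and their reads may be the same. Gm31583, a predicted gene, stood at 11.9 CPM in that library and at no more than 5.53 CPM in the others.

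Control library 3 stood apart among the controls. It had the highest levels of lipogenic and cholesterol synthesis genes in its group, given below, and of Sult2a1, a sulfotransferase of bile acids and steroids, at 123 CPM against 0.0516 to 38.5 CPM in the other 7 libraries. Sult2a3, a related gene, stood at 15.4 CPM there and at most 3.96 CPM elsewhere, and the cytochrome P450 gene Cyp3a16 at 18.6 CPM and at most 7.75 CPM elsewhere. Inca1 (11.7 CPM) and Tcim (74.6 CPM) were highest there too, with at most 8.25 and 53.9 CPM elsewhere. Results below are given with all 8 libraries, and for the lists and genes that moved most also without these libraries.

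Genes that did not pass but whose groups did not overlap were ranked by p. Col5a3, a minor fibrillar collagen chain (mm10 chromosome 9, 20770050 to 20815067), stood at 2.54, 3.15, 3.52 and 4.20 CPM in controls against 11.5, 5.06, 10.3 and 8.86 CPM in LERKO (log2 fold change 1.42, SE 0.34, adjusted p = 0.9995, edgeR). With DESeq2 the same gene passed (adjusted p = 0.0327), so its call depends on the tool. Without LERKO libraries 2 and 4 its log2 fold change was 1.71.

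Polb, the polymerase of base excision repair, stood at 10.6, 8.01, 11.5 and 10.04 CPM in controls against 13.2, 13.2, 13.2 and 13.5 CPM in LERKO (log2 fold change 0.40, SE 0.11). Hells, a chromatin remodeller needed for DNA methylation, held 0.674, 0.671, 0.653 and 0.624 CPM in controls and 1.38, 1.33, 1.39 and 2.11 CPM in LERKO (log2 fold change 1.24, SE 0.36). The controls lay close together and LERKO library 4 was highest; without it the value was 1.05. Orc6, a subunit of the origin recognition complex, stood at 1.87, 2.74, 2.56 and 2.44 CPM in controls against 2.99, 3.31, 3.63 and 3.77 CPM in LERKO. For Rnaseh2b, a subunit of the RNase that removes ribonucleotides from DNA, the controls held 5.65, 7.08, 7.08 and 6.87 CPM and LERKO 7.68, 8.05, 10.2 and 8.96 CPM. Pidd1, a scaffold of the p53 response to DNA damage, stood at 0.778, 1.14, 1.31 and 1.48 CPM and at 1.98, 1.97, 1.67 and 2.01 CPM. All 5 have the same adjusted p of 0.9995 in edgeR as Col5a3, and none passed.

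The other higher genes of that ranking were 4930402H24Rik, Sugp2, Fhit, Klk1b4, Flnc and Gprasp1, with log2 fold changes of 0.32, 0.45, 0.62, 1.32, 3.44 and 0.28. Without LERKO library 4 the value of Klk1b4 was 0.76 and that of Flnc 1.41. Klk1b4, a kallikrein gene, stood at 6.22 CPM in LERKO library 4 and at 1.55 to 2.53 CPM in the other LERKO libraries. Flnc, a filamin of muscle, reached 4.36 CPM in LERKO library 4 and at most 0.39 CPM in any other library. Fhit, 4930402H24Rik and Gprasp1 overlap other genes on their strand, and Sugp2, Orc6, Rnaseh2b and Polb overlap genes on the opposite strand, so their reads could be shared.

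Among the lower genes, Tbl1xr1 encodes a subunit of the NCoR and SMRT corepressor complexes, which silence genes at unliganded nuclear receptors. Tbl1xr1 (mm10 chromosome 3, 22076652 to 22216594) stood at 45.6, 40.0, 42.4 and 53.6 CPM in controls against 37.1, 37.9, 34.4 and 31.0 CPM in LERKO (log2 fold change -0.37, SE 0.10, adjusted p = 0.9995, edgeR). The gap between the lowest control and the highest LERKO library was narrow. Zfp791, a zinc finger gene, held 5.96, 6.71, 7.13 and 10.5 CPM in controls and 3.04, 4.43, 3.85 and 3.92 CPM in LERKO (log2 fold change -0.99, SE 0.24). It did not pass in edgeR, with an adjusted p of 0.9995.

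Chac1, a glutathione-degrading enzyme that is induced by the ATF4 branch of the stress response, stood at 10.6, 16.9, 9.49 and 9.87 CPM in controls against 2.71, 8.58, 3.68 and 3.57 CPM in LERKO. Library 2 was the highest in both groups, which did not overlap, and the log2 fold change was -1.34 (SE 0.49). Without LERKO libraries 2 and 4 it was -1.88. Trib3, a pseudokinase induced by the same branch, also had groups that did not overlap, at 6.43, 5.63, 6.08 and 6.70 CPM in controls and 3.91, 4.32, 5.58 and 4.06 CPM in LERKO. Of the 27 tested genes of the unfolded protein and integrated stress response, 22 had negative fold changes, and the median was -0.12, with 1 gene at an unadjusted p below 0.05.

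Slc38a7, a lysosomal amino acid transporter, stood at 30.5, 26.8, 26.7 and 27.2 CPM in controls against 23.2, 23.1, 25.1 and 22.6 CPM in LERKO (log2 fold change -0.24.) Rdh16f1 and Rdh9, retinol dehydrogenases, had the same log2 fold change of -0.55. They overlap each other on 1 strand, so they may be a single signal. Adgrg2 (-1.31), Gm43695 (-0.60), Dyrk1a (-0.19), Zxdb (-0.72) and Rad51d (-0.32) were also in that ranking, and none passed in edgeR. Gm43695 overlaps Pisd on the same strand.

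**Figure D3:**
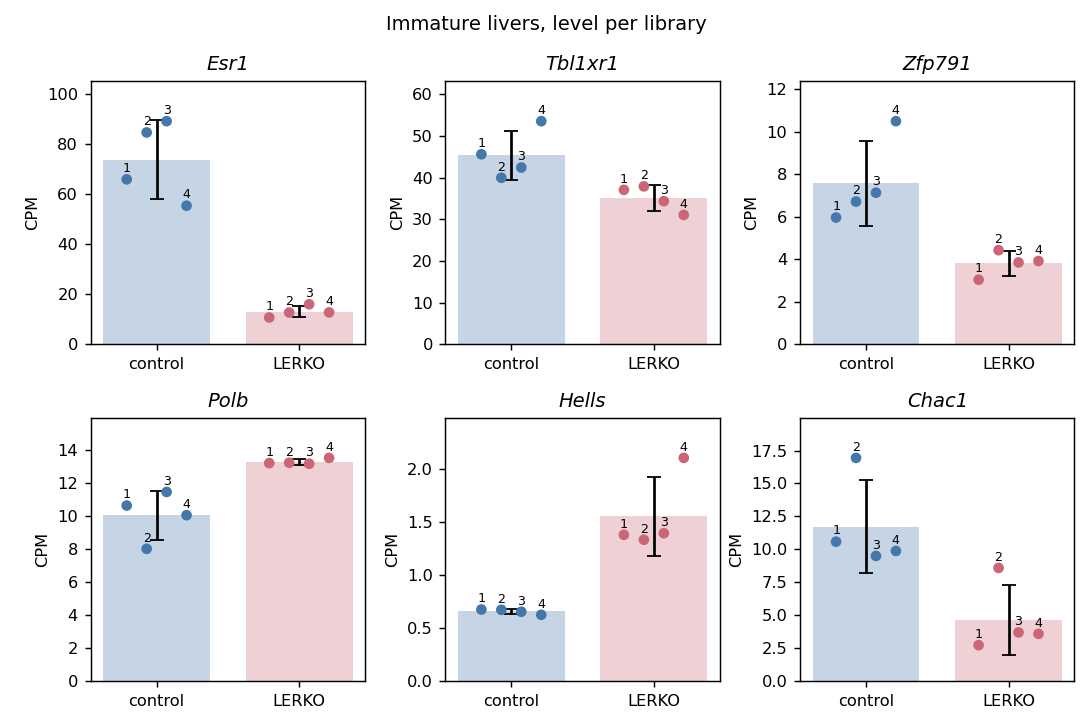
Levels (CPM) of 6 genes in the 4 control (blue) and 4 LERKO (red) libraries, numbered within each group, with bars for the mean and lines for the SD (n = 4). Esr1 fell from 55.3 to 89.0 CPM in controls to 10.7 to 15.95 CPM in LERKO; the other 5 genes did not pass, and their groups do not overlap.

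Known oestrogen-responsive genes of the liver gave no call. Of 20 tested, 5 were positive and 15 negative, 0 had an unadjusted p below 0.05, and the groups of 0 were free of overlap. Their median was -0.14, beside 0.01 over all tested genes. The 95% interval lay within 2-fold for 15 of the 20. For Agt, which encodes angiotensinogen, the values were 1086, 943, 898 and 1233 CPM in controls against 1256, 783, 1009 and 743 CPM in LERKO, so the groups overlapped. F12, a coagulation factor, held 594, 640, 519 and 653 CPM in controls and 534, 541, 545 and 505 CPM in LERKO (log2 fold change -0.18, SE 0.10). Cyp7a1, the rate-limiting enzyme of bile acid synthesis, stood at 74.8, 85.7, 126 and 44.5 CPM in controls against 271, 211, 39.8 and 79.0 CPM in LERKO. LERKO libraries 1 and 2 lay above all controls and library 3 below them, with a log2 fold change of 0.86 (SE 0.48). Apoa1, the main protein of high-density lipoprotein, was lowest in LERKO library 1 and highest in LERKO library 2 among the 8. Its log2 fold change was -0.25 with all libraries and -0.64 without LERKO library 2. Without LERKO library 2, 3 of the 20 genes had an unadjusted p below 0.05, all lower. Without control library 3 there were 4, of which 3 were higher, and the log2 fold change of Cyp7a1 was 1.14. The number of all tested genes at that p also moved with the library left out, as given in the last section. These counts are therefore no result about the list. With single libraries left out the median of the list lay between -0.17 and -0.06.

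Other nuclear receptors did not take a common direction. Of 32 tested, 12 were positive and 20 negative, with a median of -0.07 and 0 at an unadjusted p below 0.05. Hnf4a, a master factor of hepatocytes, had a log2 fold change of -0.30 (SE 0.17) and Rxra, the partner of many nuclear receptors, one of -0.19 (SE 0.12). Of 20 coactivators and corepressors 13 were negative, with a median of -0.03, and Tbl1xr1 was the only member at an unadjusted p below 0.05. Ncor1, the scaffold of its complex, stood at 131, 125, 109 and 124 CPM in controls against 118, 115, 105 and 94.96 CPM in LERKO, and those ranges overlap.

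Genes of fatty acid synthesis had positive fold changes without exception, and the size of the difference hung on single libraries. All 24 tested members were positive, with a median of 0.55. No member passed in edgeR, and 4 had an unadjusted p below 0.05, beside 2.76% of all tested genes. Scd1, the stearoyl-CoA desaturase, stood at 507, 2262, 6633 and 1430.1 CPM in controls against 4549, 1890, 4180.0 and 25702 CPM in LERKO. Fasn, fatty acid synthase, held 123, 393, 1353 and 145 CPM in controls and 918, 322, 328 and 4024 CPM in LERKO. In both genes LERKO library 4 was far above every other library, control library 3 came second, and the groups overlapped. The log2 fold change of Scd1 was 1.75 (SE 0.76) with all libraries, 0.39 without LERKO library 4 and 2.70 without control library 3. For Fasn these values were 1.47, 0.05 and 2.66.

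Cholesterol synthesis followed the same libraries. All 25 tested members were positive, with a median of 0.37 and 0 at an unadjusted p below 0.05. Sqle, squalene epoxidase, stood at 4.25, 12.8, 31.9 and 3.29 CPM in controls against 17.9, 14.9, 10.9 and 68.8 CPM in LERKO. Insig1, the sterol-regulated anchor that retains SREBP in the endoplasmic reticulum, held 148, 208, 590 and 149 CPM in controls and 394, 144, 334 and 540 CPM in LERKO. Controls 1 and 4 were the lowest for Sqle, and control 3 was the highest for Insig1.

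A list level, the mean over its genes of log2 CPM minus the gene's mean over the 8 libraries, shows this for each mouse. For fatty acid synthesis it was -0.95, -0.16, 0.74 and -0.90 in controls and 0.23, -0.41, -0.05 and 1.51 in LERKO. For cholesterol synthesis it was -0.89, -0.14, 0.93 and -0.96 in controls and 0.19, -0.19, -0.04 and 1.10 in LERKO. The 3 LERKO libraries other than library 4 lay between the lowest and the highest control in both lists. Without LERKO library 4 the medians were 0.04 for fatty acid synthesis and 0.01 for cholesterol synthesis. Without LERKO libraries 2 and 4 they were 0.22 and 0.09, and without control library 3 they were 0.96 and 0.98, with 15 and 19 members at an unadjusted p below 0.05. With both LERKO library 4 and control library 3 left out they were 0.41 and 0.51. Each of these libraries lay farthest from its group's median in both lists, so leaving it out moves these medians and counts by construction. Without control library 3, more of all tested genes also had an unadjusted p below 0.05 than with all libraries, as given in the last section. The counts of members are therefore no result about these lists.

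The levels of both lists moved together over the 8 mice. Pearson's r was 0.975 (exact permutation p = 4.96e-05, adjusted 0.000248 over 5 relations) and Spearman's rho was 0.976 (exact permutation p = 0.000397, adjusted 0.00198). Without the 2 libraries farthest from the median, control 1 and LERKO 4, r was 0.983. The lists share 0 genes and are measured in the same libraries. The 5 relations were taken from lists chosen with earlier results of these data known. The permutations mixed LERKO and control mice, so these p-values are descriptive. The sources used here give neither a batch nor a sampling time, so no value within batches can be had.

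**Figure D4:**
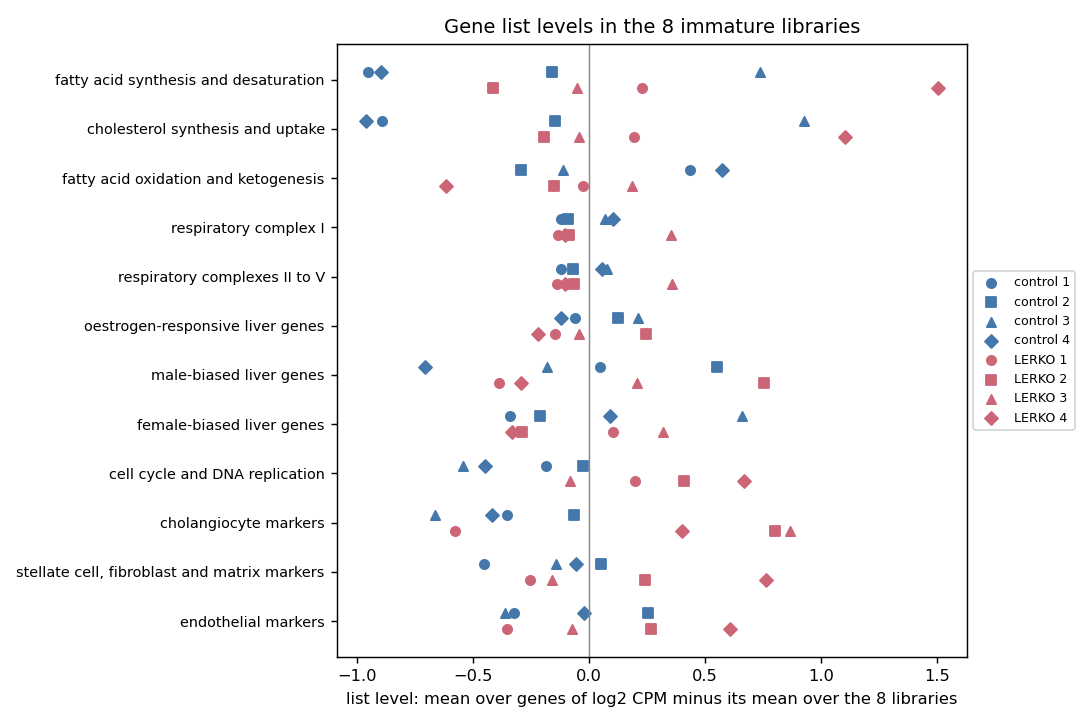
List levels (log2 CPM, centred on the mean of the 8 libraries) for 12 gene lists, controls in blue and LERKO in red, with a marker shape for each library number. LERKO library 4 lies at 1.51 for fatty acid synthesis and 1.10 for cholesterol synthesis, control library 3 is the highest control in both, and LERKO library 3 lies at 0.35 and 0.36 for the respiratory complexes.

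Promoter sequences of 4 genes of these lists, and of Mcm3 from the cell cycle list described below, are shown. Only windows with a match to a motif searched were printed, and none of the 5 holds the full oestrogen response element. In the RefSeq table of GRCm38.p6 promoters, the 250 bases before each start site were searched on both strands for 4 motifs: the sterol regulatory element TCACNCCAC, the E-box CACGTG bound by ChREBP and other factors, the CCAAT box CCAAT bound by NF-Y, and the full oestrogen response element, which is GGTCA, NNN and TGACC in a row. Stretches of 120 bases from these windows are printed 5′ to 3′ on the gene's strand, with matches on either strand in capitals.
Mlxipl (chr5:135106705-135106824, forward strand): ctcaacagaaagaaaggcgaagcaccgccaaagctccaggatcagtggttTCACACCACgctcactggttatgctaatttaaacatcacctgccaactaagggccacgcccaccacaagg
Hmgcs1 (chr13:119690164-119690283, forward strand): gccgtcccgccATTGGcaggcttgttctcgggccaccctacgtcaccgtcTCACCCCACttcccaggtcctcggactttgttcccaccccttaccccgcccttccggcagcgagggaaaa
Insig1 (chr5:28071261-28071380, forward strand): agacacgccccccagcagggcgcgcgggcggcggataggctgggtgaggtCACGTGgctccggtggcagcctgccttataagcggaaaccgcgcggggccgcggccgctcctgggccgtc
Idi1 (chr13:8885486-8885605, forward strand): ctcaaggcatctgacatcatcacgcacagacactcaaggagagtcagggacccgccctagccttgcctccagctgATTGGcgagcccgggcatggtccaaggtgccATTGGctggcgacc
Mcm3 (chr1:20820360-20820479, reverse strand): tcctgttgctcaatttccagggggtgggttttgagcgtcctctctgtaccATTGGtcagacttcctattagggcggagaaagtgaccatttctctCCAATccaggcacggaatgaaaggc
In Mlxipl, which encodes ChREBP, the capitals mark a sterol regulatory element 136 bases before the start. In Hmgcs1, an enzyme of the mevalonate route, they mark a CCAAT box and a sterol regulatory element, which begin 176 and 137 bases before the start. In Insig1 they mark an E-box, and in Idi1, an isomerase of the same route, and Mcm3, a subunit of the replicative helicase, CCAAT boxes.

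The sterol regulatory element was found in the window of 1 of 17 cholesterol genes and 1 of 19 fatty acid synthesis genes that matched the table, and in 1.28% of the 10237 tested genes that matched. The E-box was found in 4 of 17 and 3 of 19, against 9.85% of genes. The CCAAT box was found in 16 of 17 cholesterol genes, 13 of 19 fatty acid synthesis genes and 17 of 21 cell cycle genes, against 40.7% of genes. Over all 32851 windows of the table the shares were 1.05% for the sterol regulatory element, 6.02% for the E-box, 33.9% for the CCAAT box and 0.0639% for the oestrogen response element. The full oestrogen response element was in the window of 0 of 14 matched oestrogen-responsive genes and of 0 of the 10237 tested genes. A match says only that the letters are there, and the window is short. Mlxipl, Hmgcs1 and Idi1 were chosen for their matches, after the values were seen. Hmgcs1 itself stood at 65.4, 70.0, 178 and 69.5 CPM in controls against 113, 63.1, 112 and 242 CPM in LERKO, and Mlxipl at 166, 250, 270 and 182 CPM in controls against 173, 258, 348 and 196 CPM in LERKO. Hmgcs1 was highest in LERKO library 4 and control library 3, whereas Mlxipl was highest in LERKO library 3.

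Fatty acid oxidation and ketogenesis genes leaned the other way. Of 36 tested, 33 had a fold change below 0; the median was -0.26, with 0 at an unadjusted p below 0.05. The list level was 0.43, -0.29, -0.11 and 0.57 in controls and -0.03, -0.15, 0.19 and -0.62 in LERKO. Controls 1 and 4 were highest and LERKO 4 lowest, while the other 3 LERKO libraries lay within the control range. Ehhadh, a peroxisomal enzyme of beta-oxidation, stood at 723, 346, 382 and 900 CPM in controls against 337, 297, 498 and 322 CPM in LERKO. Cyp4a14, a PPAR-alpha target, ran from 562 to 3123 CPM in controls and from 197 to 1061 CPM in LERKO. The list's median was -0.16 without LERKO library 4, and without LERKO libraries 2 and 4 it was -0.10.

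Over the 8 libraries the level of fatty acid oxidation genes was lower where that of fatty acid synthesis genes was higher, with r = -0.822 (exact permutation p = 0.0127, adjusted 0.0212) but rho = -0.619 (exact permutation p = 0.115, adjusted 0.192). Without control 1 and LERKO 4 r was -0.565. The relation therefore rests in part on those libraries. In the same family of 5, fatty acid synthesis against the cell cycle list gave r = 0.447 (exact permutation p = 0.27, adjusted 0.337), and male-biased against female-biased genes gave r = -0.332 (exact permutation p = 0.419, adjusted 0.419). Neither passed.

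Mitochondrial genes differed little between the groups. Of 36 tested subunits of respiratory complex I, 27 were positive (median 0.02), and of 38 subunits of complexes II to V 31 (median 0.04). All 36 and all 38 had a 95% interval within 2-fold, and 0 had an unadjusted p below 0.05. Their levels set 1 library apart. For complex I the list level was 0.35 in LERKO library 3 and -0.13 to 0.11 in the other 7, and for complexes II to V it was 0.36 and -0.14 to 0.08. Ndufb9, a complex I subunit, stood at 420 CPM in that library and at 203 to 279 CPM in the others. Atp5b, the catalytic subunit of ATP synthase, did not share this, at 1077 CPM there within a range of 1022 to 1205 CPM. Without LERKO library 3 the medians were -0.11 and -0.08, so their sign hung on that library. For 31 genes of mitochondrial biogenesis, dynamics and mitophagy the median was -0.02, with 0 at an unadjusted p below 0.05. The 13 genes of the mitochondrial genome had a count of 0 in every library and give no information.

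Cell cycle and DNA replication genes held more genes at a low p than any other list. Of 25 tested, 24 were positive, with a median of 0.69. None passed in edgeR, and 12 had an unadjusted p below 0.05, all higher in LERKO. Over all tested genes, 1.86% were higher at that p. The list was chosen with earlier results of these data known, so the count is no test. The list level was -0.18, -0.02, -0.54 and -0.45 in controls and 0.20, 0.41, -0.08 and 0.67 in LERKO, so LERKO libraries 1, 2 and 4 lay above all controls and library 3 within their range. Mcm3 stood at 3.78, 3.62, 2.66 and 2.95 CPM in controls against 6.39, 5.54, 3.35 and 8.86 CPM in LERKO (log2 fold change 0.89, SE 0.27). Mcm4, of the same helicase, held 3.47, 2.84, 3.67 and 2.95 CPM in controls and 7.22, 4.96, 2.68 and 8.33 CPM in LERKO, with 0.84 (SE 0.28). LERKO library 4 was the highest for both, and library 3 overlapped the controls.

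Ccna2, cyclin A2, chosen after its values were seen, was the only member of the list whose groups did not overlap, at 0.201 to 0.516 CPM in controls and 0.552 to 1.37 CPM in LERKO. Pcna, the replication clamp, had a log2 fold change of 0.24 (SE 0.10), and Ccnd1, cyclin D1 of the G1 phase, one of 0.00 (SE 0.18). Without LERKO library 4 the median was 0.53, with 4 members at an unadjusted p below 0.05, and without LERKO libraries 2 and 4 it was 0.48, with 1. Over the settings in which single immature libraries were left out it stayed positive, between 0.53 and 0.83. Summed over the list, the level was 179 to 237 CPM in controls and 218, 244, 167 and 296 CPM in LERKO, and these ranges overlap; Ccnd1 alone held 110 to 157 CPM in controls. LERKO library 4, the highest, is also the library with muscle transcripts and the highest stellate and endothelial levels. The part of these in the result was not tested.

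Markers of bile duct cells were positive in all 12 tested genes, with a median of 0.37 and 2 members at an unadjusted p below 0.05. Over all tested genes, 2.76% had such a p. Dmbt1, a secreted mucin-like scavenger protein of ducts and mucosa, had a count of 0 in controls 1, 3 and 4 and 0.413 CPM in control 2. In LERKO it had a count of 0 in library 1 and stood at 70.1, 36.5 and 3.48 CPM in libraries 2, 3 and 4. Its adjusted p was 0.9995 in edgeR, and the groups overlapped at 0. Krt19, a keratin of duct cells, held 1.14, 1.498, 0.904 and 0.681 CPM in controls and 1.33, 3.41, 2.40 and 1.42 CPM in LERKO, so libraries 2 and 3 were again the highest. Spp1, osteopontin, stood at 27.5 to 31.0 CPM in controls against 27.9 to 40.4 CPM in LERKO, and it overlaps another gene on its strand. The list level was -0.35, -0.06, -0.66 and -0.42 in controls and -0.58, 0.80, 0.87 and 0.40 in LERKO, so LERKO library 1 lay among the controls and the other 3 above them. The summed level was 89.7 to 94.6 CPM in controls and 95.7, 168, 147 and 116 CPM in LERKO. The median was 0.40 without LERKO library 4, 0.32 without libraries 2 and 4 and 0.16 without library 3.

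Stellate cell and endothelial markers followed LERKO library 4. Of 31 stellate, fibroblast and matrix genes 30 were positive (median 0.37), and of 25 endothelial genes 23 (median 0.29). In both lists 0 members had an unadjusted p below 0.05. Col5a1, a fibrillar collagen chain, was the only one of these genes whose groups did not overlap, at 5.22 to 6.18 CPM in controls and 6.25 to 10.7 CPM in LERKO. Summed over the lists, stellate markers ran from 511 to 670 CPM in controls and stood at 502, 733, 586 and 995 CPM in LERKO, and endothelial markers ran from 333 to 478 CPM and stood at 314, 492, 401 and 620 CPM. Library 4 was the highest in both, and library 1 lay below every control in these sums. In the list levels library 4 was again the highest, at 0.76 and 0.61, while library 1, at -0.25 and -0.35, lay within the control ranges of -0.45 to 0.05 and -0.36 to 0.25. Without library 4 the medians were 0.09 and 0.07, and without libraries 2 and 4 they were -0.06 and -0.12.

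Stab1, a scavenger receptor of sinusoidal endothelium, stood at 17.8, 29.4, 20.1 and 23.3 CPM in controls against 17.3, 34.5, 30.9 and 37.8 CPM in LERKO. Tgfb1, the main profibrotic cytokine, held 7.52, 8.16, 5.88 and 5.73 CPM in controls and 7.82, 7.25, 7.70 and 12.4 CPM in LERKO. Both lists moved together over the 8 mice, with r = 0.920 (exact permutation p = 0.000967, adjusted 0.00242), rho = 0.833 (exact permutation p = 0.0154, adjusted 0.0384) and r = 0.882 without control 1 and LERKO 4.

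**Figure D5:**
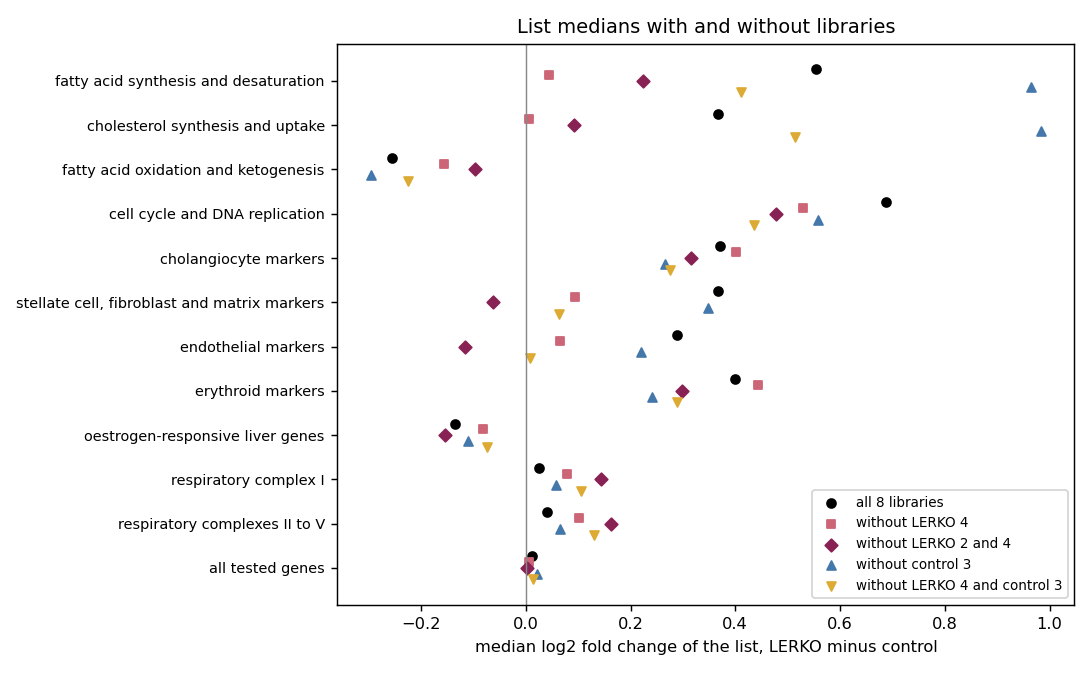
Median log2 fold change (LERKO minus control) of 11 gene lists and of all tested genes, with all 8 libraries and with named libraries left out. The medians of fatty acid and cholesterol synthesis run from 0.04 and 0.01 without LERKO 4 to 0.96 and 0.98 without control 3, and the cell cycle median stays between 0.44 and 0.69 in the settings shown.

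Of 19 hepatocyte markers 15 were negative, with a median of -0.11, and Alb, albumin, ran over overlapping ranges in both groups. The median was 0.02 for Kupffer cell and macrophage markers (14 of 22 positive) and 0.06 for T, B and NK cell markers (10 of 17 positive). All 8 erythroid markers were positive, with a median of 0.40. Their list level was -0.19, -0.20, -0.50 and 0.135 in controls and 0.145, 0.23, 0.20 and 0.17 in LERKO; control 4 came close to the LERKO libraries without overlapping them. The median ran from 0.24 without control library 3 to 0.60 without control library 4. Alas2, the erythroid enzyme of haem synthesis, stood at 10.2, 11.5, 11.5 and 12.9 CPM in controls against 18.03, 12.2, 13.3 and 17.5 CPM in LERKO, and only control 4 overlapped. Adipocyte markers, of which 7 were tested, had a list level of 1.90 in control library 4 and 1.25 in LERKO library 2, and of -1.19 to 0.22 in the other 6. Neutrophil markers (4 tested), mesothelial markers (5) and pancreatic acinar markers (2) were too few or too low to describe.

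In the remaining metabolic lists, 0 members passed in edgeR, and medians ran from -0.12 to 0.21. The median was 0.01 for lipid droplet and lipolysis genes (9 of 18 positive), -0.08 for triglyceride assembly and VLDL secretion genes, -0.01 for bile acid genes and 0.02 for antioxidant genes. Lipc, the hepatic lipase, was an exception by its separation, at 242, 249, 216 and 232 CPM in controls and 151, 189, 212 and 127 CPM in LERKO (log2 fold change -0.47, SE 0.20), and it did not pass. LERKO library 3 came within a few CPM of the lowest control. For urea cycle and periportal genes the median was 0.21 (15 of 19 positive), and for glucose and glycogen genes it was 0.15 (20 of 28 positive). Without LERKO library 4 both were 0.07. Gckr, the regulator of glucokinase, had a log2 fold change of 0.26 (SE 0.12). The pericentral median was -0.08 and that of xenobiotic cytochrome P450 genes -0.12. Cyp2e1, a member of both lists, stood at 15739, 11934, 9824 and 16588 CPM in controls against 9010, 12748, 9530 and 5336 CPM in LERKO, again lowest in library 4.

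Secreted and signalling genes leaned slightly lower. Of 30 acute phase genes 20 were negative, with a median of -0.14 and 0 at an unadjusted p below 0.05. Of the 30, 3 were lower in all 4 LERKO libraries than in all 4 controls, and 0 lay above them. Over all tested genes these shares were 0.673% and 0.957%. The list was chosen with earlier results of these data known, so the count is no test. The 3 were C3, the central complement protein (9992 to 13068 CPM in LERKO, 13420 to 15010 CPM in controls), Fgb and Cebpb. Fgb, a fibrinogen chain, had a log2 fold change of -0.20 (SE 0.33). Cebpb, a transcription factor of the acute phase, stood at 213 to 317 CPM in LERKO against 326 to 393 CPM in controls. Prlr, the prolactin receptor, stood at 401, 395, 436 and 417 CPM in controls against 364, 378, 353 and 311 CPM in LERKO, with no overlap and a log2 fold change of -0.23 (SE 0.13). The growth hormone and IGF axis had a median of -0.11, with 6 of 20 positive. Female-biased genes had a median of -0.09 and male-biased genes one of 0.17, which was -0.02 without LERKO library 2. The median of interferon and antigen presentation genes was -0.05 and that of clock genes -0.02. Among the latter was Cry2, a repressor of the clock, at 53.3 to 57.8 CPM in controls and 45.0 to 49.4 CPM in LERKO.

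The mature mice of the series carry the same pair of genotypes and share no animals with the immature ones. For Esr1 the log2 fold change was -2.33 in mature mice beside -2.50 in immature mice, a difference of -0.17 (SE 0.25, adjusted p = 0.928, edgeR). For Tbl1xr1 it was 0.33 beside -0.37, a difference of -0.70 (SE 0.14, adjusted p = 0.566, edgeR). Hells had -0.65 beside 1.24 and Mcm3 -0.65 beside 0.89. The differences of 1.89 (SE 0.51) and 1.54 (SE 0.39) had the same adjusted p of 0.566 in edgeR and did not pass. At an unadjusted p below 0.05 the edgeR test of the difference held 850 genes (6.35%), limma-voom called 0 and DESeq2 called 22 at its adjusted p, which include Tbl1xr1, Dmbt1 and muscle genes such as Acta1 and Ckm. Summed over the markers, muscle transcripts also stood at 1244, 567, 43.4 and 129 CPM in the 4 mature controls, of which 3 are over 50 CPM, and at 32.9 to 39.0 CPM in the mature LERKO libraries, and their part in those calls was not tested.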

How the data were processed

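RNA of individual mouse livers was sequenced as stranded paired-end libraries, per the labels' protocols. The authors deposited a table of read counts per gene with 35502 genes; the submitters' processing notes name STAR, limma and the mm10 build. For the counter, its strand setting and the annotation: not given in the sources used here. A few deposited values (10, in 2 genes) were estimated counts that were not whole and were rounded. The immature libraries hold 18123974 to 21026969 counts.

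Genes were filtered with filterByExpr, scaled by TMM and tested in edgeR 4.0.16 (R 4.3.3) by the quasi-likelihood test over all 16 libraries, with 1 coefficient per group and Benjamini-Hochberg adjustment at 0.05 over 13379 genes. CPM are from these counts and factors. DESeq2 1.42.0, limma-voom (limma 3.58.1), other scalings, filters and left-out libraries were alternatives. The scripts were tested on simulated data. Of the identifiers, 35465 matched GENCODE vM21, which gave positions and overlaps.

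The genes and lists were chosen with earlier results of these data known. The genes named are Esr1, the 12 in each direction with the smallest p among genes whose groups do not overlap, the 3 most abundant and the 2 with the smallest p of each list, and the 5 most raised in each library that stood apart; any gene outside this rule is marked as such. Differences of list levels between the groups are descriptions without a test, and the p-values of relations between lists are descriptive. Each library is 1 mouse, so the edgeR p-values set a difference against the spread between mice, estimated over all 16 libraries. A few genes that this rule selects are not reported here.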

Additional observations from a re-analysis of the deposited data

Results flagged for a closer look

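In each group of 4 libraries, a value was marked when its gap to the nearest other library took up more of the group's range than Dixon's critical value allows at 95%. Of 302 such groups (115 genes and 36 lists), 44 were marked. Chance marks about 1 in 20 groups of unselected values, but many of these genes were chosen because 1 library was high in them, so the number marked is no test.

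LERKO library 4 had 20 of these. It was highest for Scd1 (25702 CPM), Fasn (4024 CPM), Sqle (68.8 CPM) and Tgfb1 (12.4 CPM), and for Polb (13.5 CPM), Hells (2.11 CPM) and Flnc (4.36 CPM). Its muscle genes were marked: Acta1 at 46.2, Myh1 at 33.2, Ckm at 18.5, Tnnt3 at 14.99, Atp2a1 at 12.2, Tnnc2 at 9.30, Mb at 7.003, Xirp2 at 5.53, Myl3 at 5.34, Mybpc1 at 3.82 and Myom2 at 3.33 CPM. The muscle list level was 4.11 there, and its bile acid list level was the lowest of the group at -0.093.

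LERKO library 3 was highest for respiratory complex I (0.35) and complexes II to V (0.36), and lowest for the coregulator list (-0.17) and Pidd1 (1.67 CPM). LERKO library 2 was highest for Chac1 (8.58 CPM), Selenbp2 (181 CPM), Serpina1e (1278 CPM), Onecut1 (128 CPM) and Gm20649 (75.0 CPM).

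Among the controls, library 3 was highest for Insig1 (590 CPM), Hmgcs1 (178 CPM), Nqo1 (9.64 CPM), Aldh1a7 (88.7 CPM), Sult2a3 (15.4 CPM) and Cyp3a16 (18.6 CPM). Library 2 was highest for Chac1 (16.9 CPM), Cdc20 (0.465 CPM), Dmbt1 (0.413 CPM), Mup21 (19.6 CPM) and Gm20649 (27.9 CPM). Library 1 was highest for Slc38a7 (30.5 CPM) and Ccnd1 (157 CPM) and lowest for Rnaseh2b (5.65 CPM). Library 4 was highest for the adipocyte list (1.90).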

How the results depend on the processing

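Esr1 was the only gene called in the alternatives run, with 2 exceptions. DESeq2 called 13 genes, 12 of them higher: Col5a3 and 11 muscle genes found in LERKO library 4. With LERKO libraries 2 and 4 and control library 3 left out, a choice made after seeing the data, edgeR called 2 genes, 1 of them higher: Aldh1a7 (log2 fold change 1.27, adjusted p = 0.0319) beside Esr1. With single libraries left out, the log2 fold change of Esr1 lay between -2.62 and -2.40. The test of a difference between stages called 0 genes with edgeR and 22 with DESeq2.

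The number of genes at an unadjusted p below 0.05, 369 with all libraries, was 617 with no filter on low counts, 171 without libraries over 50 CPM of muscle, 228 with muscle as a covariate and 196 with fatty acid synthesis as a covariate. With single libraries left out it ran from 207 (without LERKO library 4) to 675 (without control library 3); it was 228 without control library 1 and 631 without LERKO library 1 or 3. The causes were not tested. With 4 mice a group, low genes such as those of the cell cycle had wide intervals. No paired analysis was possible because the labels give no replicate numbers shared between the groups.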
